A study of Mus musculus with 18 samples.

Results

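The mRNA isoforms described here carried at least 1 Pumilio consensus site in a 3′ UTR of moderate length. They were chosen from the deposited tables by sequence alone: a nuclear isoform with a 3′ UTR of at most 1200 nt, fewer than 2 copies of the AU-rich pentamer ATTTA and at least 1 copy of the 8-nt motif TGTANATA on the sense strand, where N is any base (position 5 of the site). The rule selected 262 of the 7123 isoforms in the polysome table (3.68%) and 239 of the 6636 in the decay table (3.60%). Together these were 405 different isoforms of 200 loci with 234 different 3′ UTR sequences, and 96 of the isoforms were listed in both tables. Their median coverage, a count of molecules or reads summed over libraries, was 31 in the polysome and 76 in the decay table. No measured value entered the choice, although the site had been examined in these data before.

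All RNA came from wild-type (WT) female mice, whose primary gastrocnemius myoblasts were fused into myotubes with 1 µM of the ERK inhibitor SCH772984 for 24 h, and both ends of each mRNA molecule were read by TIF-seq2. For the polysome assay, myotubes received 100 µg/ml cycloheximide for 5 min, and the lysates were separated into polysome-free, light (2 to 5 ribosomes) and heavy (6 or more ribosomes) fractions, and the same 2 mice gave all 3 fractions. For the decay assay, actinomycin D at 7.5 µg/ml blocked transcription, and cells were collected at 0, 3, 6 and 12 h, and the same 3 mice gave all 4 times. The deposited tables pool the 6 polysome libraries and the 12 decay libraries, so each isoform has 1 translation efficiency (TE), 1 half-life and 1 summed coverage per table, and the variation from mouse to mouse is not known for any value given here.

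Pumilio proteins are RNA-binding proteins whose repeats each contact 1 base of the motif (read with U in place of T), with the first 3 bases nearly invariant and the fifth free to vary. In 3′ UTRs they recruit the CCR4-NOT deadenylase, which shortens the poly(A) tail, and they are known as repressors of translation and of mRNA stability in stem cells, neurons and the germ line. The first 4 bases are also read by cleavage factor Im upstream of polyadenylation sites, so the same letters near a 3′ end belong to more than 1 kind of protein.

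Gene names were available for 205 of the 405 isoforms, at 89 of the 200 loci, through an exact match of isoform starts to RefSeq promoter windows. The isoform's own start matched for 77 of the 144 named isoforms in the polysome table and 75 of the 114 in the decay table, and the others took the name of another isoform of their locus. Of 10 myotube markers, 9 were found among the named isoforms of each table. Myod1 and all 7 markers of fibroblasts, endothelium and immune cells had no named isoform. A missing name does not show that a gene was absent, since names covered 54.9% of polysome and 53.3% of decay isoforms. None of 8 Pumilio targets known from other tissues was named in either table, which covers only loci that could be named.

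The following sites belong to isoforms named in the results below. They are written 5′ to 3′ as in the deposited 3′ UTR sequences, with the 8 bases of the motif in capitals and up to 11 bases on each side. The first 2 come from the loci with the most isoforms. The next 4 lie within 20 nt of the 3′ end and share bases with a polyadenylation hexamer. The following 4 are the site pairs of 2 well covered isoforms. The last 6 include 2 sites with T and 1 with G at position 5, and sites from isoforms with a low or high value in 1 assay.
Acta1: tgtttttgacgTGTACATAgattgactcgt
Map7d1: gatgtgaatacTGTAAATAgcttgtgctat
Ndufs3: ctaaggttgtcTGTAAATAaactccaatgg
Polr2f: cgttttatatgTGTAAATAataaacctcac
Fis1: tttgcaatgagTGTAAATAaaattgggccg
Mcrs1: gtttttgttttTGTAAATAaaaagtactga
Ypel3, the first site: gacccagctccTGTACATAcattttattgc
Ypel3, the second site: tctgtagcattTGTAAATAataaaacaatg
Syngr2, the first site: caccatagtacTGTAGATAggacccagggc
Syngr2, the second site: acccagctttaTGTAAATActaccaagcag
Traf7: tggttttagacTGTATATAgattttattac
Hspa5: agctgtaatatTGTAAATActggactcagg
Tagln2: gttaatatataTGTATATAtatgttttagc
Rpl37a: ctccttacaagTGTAGATAcatctggctta
Trir: actctctgcgaTGTACATAatatttaatgc
Dnajb1: tgtggaacgtaTGTAAATAtgtttttataa

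Most isoforms had a single site. Of the 405, 381 carried 1 site, 22 carried 2 and 2 carried 3, and the 24 isoforms with several sites came from 15 loci. After overlapping isoforms were merged, 219 different sites remained. TGTAAATA was the most frequent form with 96 sites (43.8%), followed by TGTACATA with 57 (26.0%), TGTATATA with 47 (21.5%) and TGTAGATA with 19 (8.68%). The 3′ UTRs that met the length and pentamer limits consisted of 23.2% A, 26.1% C, 26.2% T and 24.5% G, so A at position 5 was above, and G below, the share of that base. The base just after the site was A in 40.2% of sites, and 34 sites (15.5%) read TGTAAATA followed by AA, as in the Fis1, Mcrs1 and Ndufs3 sequences above.

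The sites lay toward the 3′ end. Among the 251 sites counted once in each of the 234 3′ UTRs, the median distance from the last base of the site to the 3′ end was 68 nt (range 1 to 1078), and the median distance from the stop codon was 239 nt. In total 146 sites (58.2%) were within 100 nt of the 3′ end, where sites spread evenly over the same 3′ UTRs would place 34.3%. With each 3′ UTR divided into 3 equal parts, the part next to the 3′ end held 153 sites (61.0%, against 33.2% under an even spread), the middle part 53 (21.1%) and the part next to the stop codon 45 (17.9%). Sites within 20 nt of the end numbered 50 (19.9%, against 7.71%), and 39 sites (15.5%) shared bases with AATAAA or ATTAAA in the last 40 nt. Position 5 was A in 76.7% of the 43 different sites within 20 nt of the end and in 35.8% of the 176 sites farther away.

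**Figure D1:**
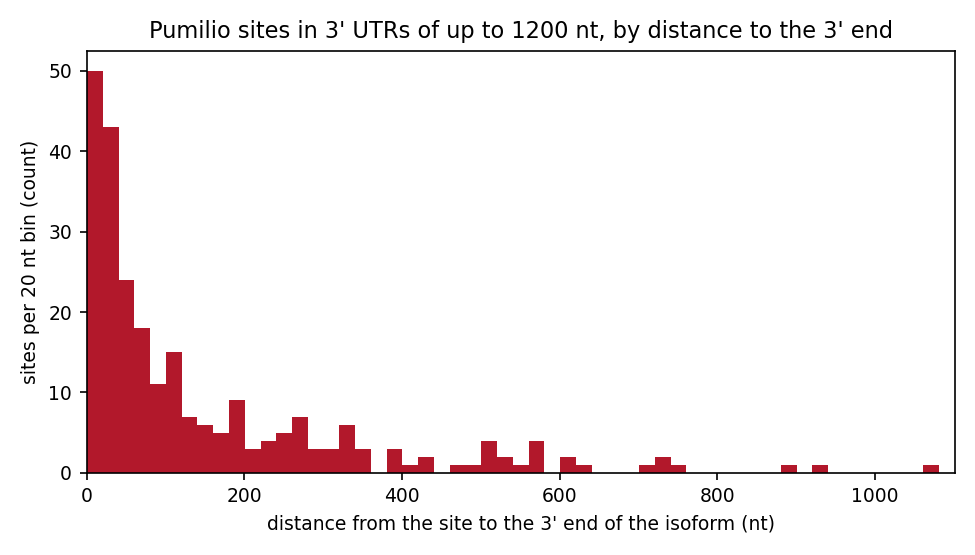
Number of Pumilio sites (y axis) by distance in nt from the site to the 3′ end of the isoform (x axis, bins of 20 nt) for the 251 sites in the 234 3′ UTRs. The first bin holds 50 sites, and 146 of the 251 sites are within 100 nt.

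Control motifs, in which the bases of the site were changed or turned round, were placed in a like way. ACAANATA, in which the UGU core is changed, was within 100 nt of the end at 29 of 64 sites (45.3%, against 27.0% under an even spread), and ATANATGT, the site written backwards, at 122 of 167 (73.1%, against 38.4%). A position near the 3′ end was thus found for both control motifs as well. Within 20 nt of the end were 15 of the 64 ACAANATA sites (23.4%) and 85 of the 167 ATANATGT sites (50.9%). Like the Pumilio motif, both control motifs can share bases with AATAAA. Their positions are therefore not independent of that hexamer, and the comparison cannot show whether the position is particular to the Pumilio site. The Pumilio motif was present in 5.86% of the 3996 different 3′ UTRs that met the length and pentamer limits, ACAANATA in 1.55% and ATANATGT in 4.00%. The share with a Pumilio site was 3.16% in 3′ UTRs of up to 150 nt and 12.8% in those of more than 900 nt, and the isoforms with a site had longer 3′ UTRs than those without (median 342.5 against 276 nt in the polysome table and 369 against 255.5 nt in the decay table). For this reason values were compared at matched length below.

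Other sequence features were set beside those of isoforms or 3′ UTRs of the same length without a site. A polyadenylation hexamer was present in the last 40 nt of 79.1% of the 3′ UTRs with a site and 74.6% of those without. A single AU-rich pentamer was found in 32.5% and 26.5%. The 3′ GC content had a median of 48.2% with a site and 51.8% without. Seed matches of the ubiquitous miRNA let-7 occurred in 2.99% and 4.29%, of the muscle miRNAs miR-1 and miR-206 in 2.56% and 3.13%, and of the muscle miRNA miR-133 in 1.71% and 3.39%. An upstream AUG was present in 34.5% of the isoforms with a site and 40.9% without, and the 5′ UTR had a median length of 97 and 107 nt. These shares were not tested.

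Isoforms with a Pumilio site had shorter half-lives than isoforms of matched length without one. The half-life, whose unit is not stated in the table, was available above 0 and at a coverage of at least 30 for 198 of the 239 isoforms (of the others 2 had no value, 2 had a value below 0 and 39 had lower coverage, with overlap). Its median was 10.2 with a site and 11.1 in 4125 isoforms without. Values ran from 3.94 to 26.6 with a site and from 0.917 to 6666 without, so the extreme high values were all on the side without a site. Each isoform was then divided by the median of the isoforms without a site whose 3′ UTR length was within 10% of its own. The median log2 ratio was -0.13 (quartiles -0.38 and 0.19, range -1.51 to 1.33), and 122 of the 198 isoforms (61.6%) were below their length-matched median, beside 49.6% of isoforms without a site. The 2 distributions overlapped widely.

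A linear model of log2 half-life with terms for the site, the length bin and log2 length, and errors clustered by locus, gave a difference of -0.12 (SE 0.0415, 95% interval -0.20 to -0.041), a change of -8.15% (two-sided Wald test, adjusted p = 0.00627 over the half-life and TE tests, n = 198 isoforms with a site). With 1 isoform per locus, the most covered, the difference was again -0.12, and 92 of 142 loci (64.8%) were below, beside 1185 of 2394 (49.5%) without a site. With 3′ GC content in the model, which was lower with a site, it was -0.085 (adjusted p = 0.0460 in the same linear model, n = 198). Among isoforms of the annotated class alone it was -0.086 and did not pass (adjusted p = 0.128, n = 117 isoforms with a site). Without the Acta1 locus it was -0.15 (adjusted p = 0.000302, n = 182). With values below percentile 1 or above percentile 99 left out, it was -0.096 (adjusted p = 0.0295 in the same linear model, n = 195).

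The same model for motifs that differ from the site gave a mixed picture. ACAANATA gave a half-life difference of -0.12 (SE 0.0671, adjusted p = 0.0646, n = 74 isoforms of 32 loci), and -0.20 (SE 0.0810, adjusted p = 0.0235, n = 43) without the Eef2 locus. ATANATGT gave -0.018 (SE 0.0512, adjusted p = 0.723, n = 161 isoforms). The first 7 bases of the site followed by a base other than A gave -0.061 (SE 0.0754, adjusted p = 0.417, n = 308 isoforms). A half-life difference of the size seen with the Pumilio site was therefore measured with ACAANATA too, which passed once the Eef2 locus was left out, and the difference between the motifs was not tested.

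**Figure D2:**
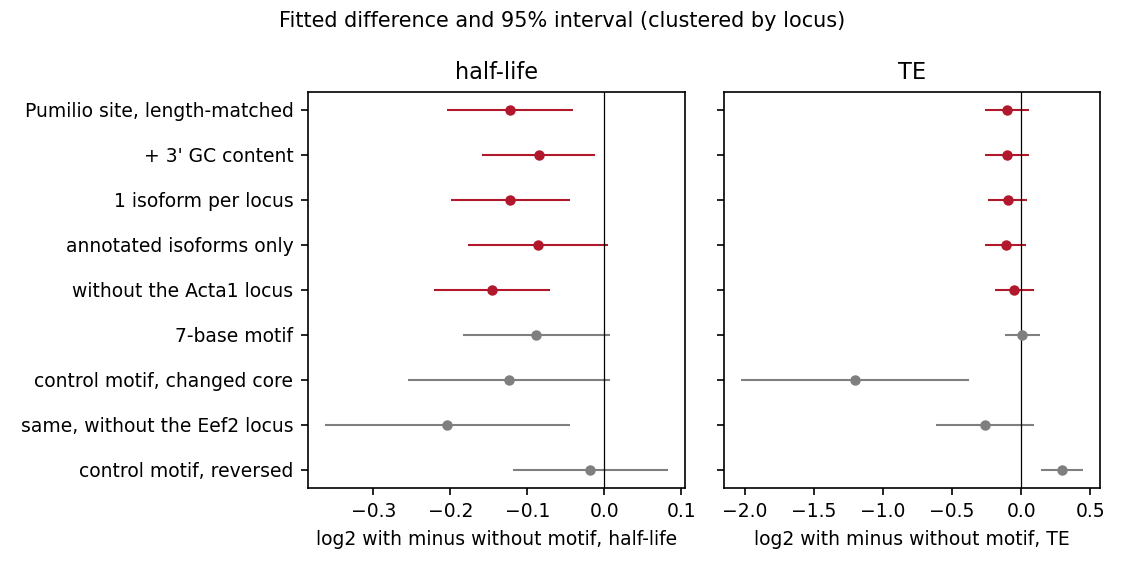
Fitted log2 difference with minus without the motif (x axis; half-life left, TE right, with different scales), with 95% intervals from errors clustered by locus, for the Pumilio site under 5 settings (red) and for 4 other motif settings (grey). For half-life the Pumilio differences range from -0.085 to -0.15; for TE the changed core gives -1.20 and the reversed motif 0.30.

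By length of the 3′ UTR, the half-life with a site was lower in 5 of the 6 bins. In 3′ UTRs of up to 150 nt, the median was 10.2 with a site (30 isoforms, 23 of them below their length-matched median) and 11.5 without. Over 150 to 300 nt, where the 16 Acta1 isoforms lie, the medians were 11.2 (59 isoforms, 31 below) and 11.3. The largest gap was at over 300 to 450 nt, with 9.25 (36 isoforms, 25 below) against 11.05. At over 450 to 600 nt the medians were 9.39 with a site (20 isoforms, 14 below) and 10.7 without. The bin of over 600 to 900 nt ran the other way, with 10.99 (31 isoforms, 15 below) against 10.7. At over 900 to 1200 nt the values were 8.97 (22 isoforms, 14 below) and 10.2.

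**Figure D3:**
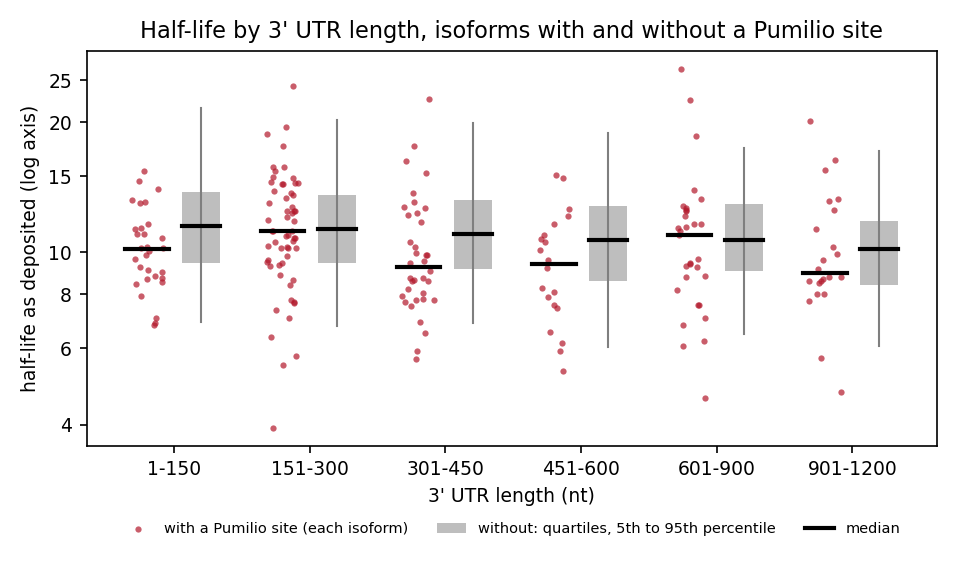
Half-life as deposited (y axis, log scale, unit not stated) by 3′ UTR length bin (x axis, nt), with each isoform with a Pumilio site as a red point left of the isoforms without one, whose grey box gives the quartiles and whose line gives the 5th to 95th percentile; black bars are medians. The medians are 9.25 with a site and 11.05 without at over 300 to 450 nt, and most points lie within the grey ranges.

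Among isoforms with a coverage of at least 100, the shortest half-lives relative to length, named because of these values, were the following. Lower ratios, down to -1.51, were found at lower coverage. The isoform chr14:20127194-20133186 on the minus strand (GRCm39, no gene name) had 5.77, against 11.4 in its length-matched isoforms. Dmap1, a subunit of a chromatin acetylation complex, had 7.05 against 12.4, with a 3′ UTR of only 48 nt. Hspa5, the endoplasmic reticulum chaperone BiP, had 6.52 against 11.1, and its site starts at position 29 of a 342-nt 3′ UTR. The unnamed isoform chr11:52122864-52137500 on the plus strand had 7.05 against 10.7, and Ccdc61, a centriole protein, had 7.65 against 11.4. Isoforms with a site were also found at the other extreme, again named because of their values. The unnamed isoform chr11:102175777-102180061 on the plus strand had a half-life of 26.6 against 10.6 at a coverage of 649. An isoform of Trir, an RNase known from its interaction with telomerase RNA, had 22.6 against 11.1 at a coverage of 131. The most covered Trir isoform (chr8:85753515-85756914, plus strand, coverage 2069) had 15.3, so both Trir starts were above the matched median while differing from each other. Unnamed isoforms with high values were chrX:73326356-73333754 on the plus strand, with 22.5 against 10.5, chr13:55467698-55469759 on the minus strand, with 19.5 against 10.97, and chr2:84657439-84660555 on the plus strand, with 18.8 against 11.3.

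For TE the difference between isoforms with and without a site did not pass the test. TE, the authors' value per isoform with no stated unit, was available above 0 and at a coverage of at least 30 for 134 of the 262 isoforms (97 loci). Low coverage removed 126, 14 had no value and 1 was below 0, with overlap. The median TE was 0.000668 with a site and 0.000794 in 2961 isoforms without. The median log2 ratio to length-matched isoforms was -0.17 (quartiles -0.60 and 0.32), and 78 of 134 (58.2%) were below, beside 50.0% of isoforms without a site. In the linear model the difference was -0.10 (SE 0.0821, 95% interval -0.26 to 0.059, adjusted p = 0.215, n = 134 isoforms with a site). With 1 isoform per locus 51 of 95 (53.7%) were below, beside 868 of 1828 (47.5%) without a site.

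The interval runs from a change of -16.7% to one of 4.18%. Of the other motifs, ACAANATA went with a difference of -1.20 (SE 0.421, adjusted p = 0.00852, n = 35, linear model), but 20 of its 35 isoforms belonged to the Eef2 locus, and without that locus it was -0.26 (adjusted p = 0.148, n = 15). ATANATGT went with a higher TE, by 0.30 on the log2 scale (SE 0.0783, adjusted p = 0.000311, n = 99 isoforms of 78 loci). Both control motifs thus gave TE differences larger than that of the Pumilio site, in opposite directions.

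By length, TE with a site had a median of 0.00104 at up to 150 nt (25 isoforms, 11 below their length-matched median), against 0.000999 without. At over 150 to 300 nt, the medians were 0.000657 (38 isoforms, 25 below) and 0.000896. At over 300 to 450 nt they were 0.000582 (22 isoforms, 14 below) and 0.000751. At over 450 to 600 nt they were 0.000476 (19 isoforms, 13 below) and 0.000666. Above that the gap was gone or turned: at over 600 to 900 nt the medians were 0.000604 (18 isoforms, 10 below) and 0.000625, and at over 900 to 1200 nt they were 0.000637 (12 isoforms, 5 below) and 0.00052. Of the 2 loci with many isoforms, Acta1 lies in the bin of over 150 to 300 nt and Map7d1 in that of over 450 to 600 nt, and the bin of over 300 to 450 nt holds neither.

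**Figure D4:**
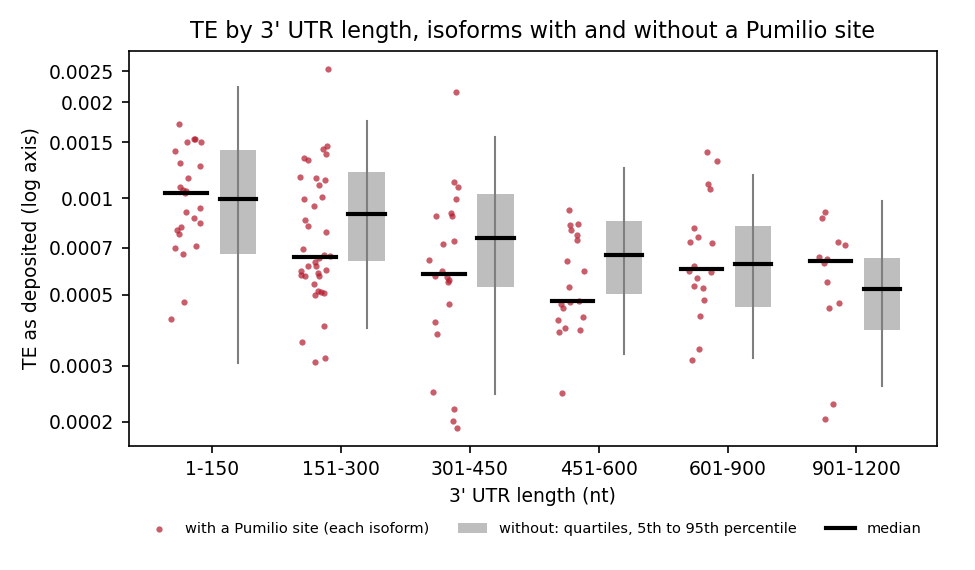
TE as deposited (y axis, log scale) by 3′ UTR length bin (x axis, nt), with each isoform with a Pumilio site as a red point left of the isoforms without one (grey box quartiles, line 5th to 95th percentile); black bars are medians. The medians are 0.000657 with a site and 0.000896 without at over 150 to 300 nt, and 0.000637 and 0.00052 at over 900 to 1200 nt.

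Acta1, skeletal muscle alpha-actin and a main protein of the thin filament, dominated the coverage. Its main isoform (chr8:124618508-124621490, minus strand, 240-nt 3′ UTR) had a coverage of 28298 in the polysome and 42409 in the decay table, of 65222 and 109711 for all isoforms with a site. The single TGTACATA starts at position 132 of the 3′ UTR, close to its middle, and all Acta1 isoforms used share this 3′ UTR and differ at the 5′ end. The main isoform had a TE of 0.000633, against 0.000903 in length-matched isoforms. All 11 Acta1 isoforms used were below, with TE between 0.000308 and 0.000633 and a median log2 ratio of -0.62. Its half-life ran the other way, with 12.5 in the main isoform against 11.3. The 16 Acta1 isoforms in the decay table had half-lives from 7.04 to 17.6 with a median of 12.9, and 4 of them were below. The highest value belonged to chr8:124618508-124619398, which starts well inside the main isoform. It had a coverage of 1290 there and a TE of 0.000539 at a coverage of 823. The stretch between its 2 ends, which includes the 240-nt 3′ UTR, is too short to hold the whole alpha-actin coding sequence. Its TE and half-life are nevertheless counted among the Acta1 values above. Without this locus the TE difference of the linear model was -0.049 (adjusted p = 0.496, n = 123).

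Map7d1, a microtubule-associated protein, had the most isoforms with a site in the polysome table, 22, of which 7 passed the coverage limit. They share a 586-nt 3′ UTR with TGTAAATA at position 337. Their TE was between 0.000393 and 0.000827, and 6 of the 7 were below the matched median of 0.000681. The annotated isoform (chr4:126125963-126150074, minus strand) had the lowest TE, 0.000393 at a coverage of 1052, and its half-life of 7.87 was below the matched 10.7. Starts of 1 locus with the same 3′ UTR therefore covered a range of TE wider than the difference fitted for the site. Values of 1 locus are not independent, which is why errors were clustered.

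Isoforms with a TE above that of their length-matched isoforms are given first, and those below it after them. Ndufs3, a core subunit of respiratory complex I, had a TE of 0.00153 against 0.000886 and a half-life of 11.4 against 12.0. Tagln2, an actin-binding protein, had a TE of 0.00111 against 0.000643 and a half-life of 12.5 against 10.6, and its site starts at position 48, far from the 3′ end. Polr2f, a subunit shared by the nuclear RNA polymerases, had a TE of 0.00141 against 0.000959 and a half-life of 14.6 against 11.5, and had a coverage of 1595 and 1946 in isoforms that start a few nt apart. Ccdc61 had the highest ratio, with 0.00255 against 0.000977, although the half-life of an isoform with a nearby start was below. The unnamed isoform chr15:80862000-80896271 on the plus strand followed, with 0.00216 against 0.000843 and a half-life of 9.44 against 11.2. At the low end stood Traf7, a ubiquitin ligase, with 0.000246 against 0.000651 and a half-life of 10.98 against 10.7. The unnamed isoform chr11:60090425-60101245 on the minus strand was below in both, with a TE of 0.000411 against 0.000811 and a half-life of 7.76 against 11.2. The lowest TE ratio belonged to the unnamed isoform chr15:89172485-89199479 on the minus strand, with 0.000201 against 0.000806.

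Further isoforms with high coverage in both tables lay on both sides of the length-matched medians. Fis1, the adaptor of mitochondrial fission, had a TE of 0.000944 against 0.000916 and a half-life of 13.8 against 11.5. Ccdc12, a spliceosome protein, had a TE of 0.00113 against 0.000825 and a half-life of 12.3 against 11.2. Mcrs1, a nuclear protein of chromatin complexes, had a TE of 0.00109 against 0.000822, while its half-life of 8.65 was below 11.3. Alg1, a mannosyltransferase of N-glycan synthesis, had a TE of 0.000667 against 0.00086 and a half-life of 12.1 against 11.01. An unnamed isoform with a site at position 25 of an 80-nt 3′ UTR, chr15:80139700-80141741 on the plus strand, had a TE of 0.00106 against 0.000892 and a half-life of 8.84 against 12.0. Unnamed isoforms of this kind included chr2:130013565-130021274 on the minus strand, with a TE of 0.0011 against 0.000822 and a half-life of 11.9 against 10.8 at a coverage of 989 and 4603. The isoform chr15:83000050-83006942 on the minus strand had a TE of 0.000646 against 0.000529 and a half-life of 10.3 against 10.01. The isoform chr17:46554859-46558911 on the minus strand was below in both, with a TE of 0.000696 against 0.000895 and a half-life of 10.3 against 11.5. Most of the 12 isoforms best covered in both tables, which include Acta1, Tagln2, Trir and Ypel3, were above their length-matched medians in each assay. Below in TE were only Acta1, Alg1 and chr17:46554859-46558911. Below in half-life were only Mcrs1, chr15:80139700-80141741 and chr17:46554859-46558911. The median over all isoforms with a site lay the other way in both assays, and this contrast was not tested.

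Few isoforms had several sites, and their values overlapped with those of isoforms with 1 site. Isoforms with 2 or more sites had a median log2 half-life ratio of -0.20 (10 isoforms of 9 loci), and those with 1 had -0.13 (188 isoforms). For TE the medians were 0.11 with 2 or more sites (10 isoforms of 9 loci) and -0.19 with 1 (124 isoforms). The isoforms with several sites differed widely among themselves. Bap1, a deubiquitinase, had a TE of 0.000204 against 0.000515 and a half-life of 8.79 against 10.3. Slc39a13, a zinc transporter, had a TE of 0.000628 against 0.000501 and a half-life of 13.3 against 10.3, with a like 3′ UTR length.

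Ypel3, a small zinc-finger-like protein of a conserved family, had 2 sites, a TE of 0.000995 against 0.000743 and a half-life of 11.7 against 10.8. Syngr2, a synaptogyrin of vesicle membranes, had 2 sites and a half-life of 11.6 against 10.7. Gsk3a, a glycogen synthase kinase, was below in both, with a TE of 0.000467 against 0.000707 and a half-life of 9.59 against 10.9. Nprl2, a subunit of the GATOR1 complex that restrains mTORC1, had a half-life of 8.46 against 11.4, and the unnamed isoform chr12:80992308-80997273 with 3 sites had 7.56 against 10.8. Tnfrsf1a, a receptor of tumour necrosis factor, had a TE of 0.000591 against 0.000651. Of the unnamed isoforms with several sites, chr11:98595423-98620245 on the minus strand was below in both, with a TE of 0.000548 against 0.000812 and a half-life of 7.70 against 11.1, and chr11:69886676-69890834 on the plus strand had a TE of 0.000743 against 0.000653.

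Site position was related to the half-life in no visible order. The median log2 half-life ratio was -0.15 with the site in the part next to the stop codon (29 isoforms), -0.14 in the middle part (54) and -0.12 in the part next to the 3′ end (115). By distance it was -0.15 within 100 nt of the end (113 isoforms), -0.070 at over 100 to 300 nt (60) and -0.13 beyond 300 nt (25). With 1 isoform per locus the middle part had -0.36 (32 loci, 25 below), the part next to the stop codon -0.13 and the part next to the 3′ end -0.12, and 16 of the 54 isoforms of the middle part were of Acta1. By the base at position 5, the half-life ratio was -0.20 for A (54 of 77 below), -0.064 for C (39 of 70), -0.060 for T (21 of 36) and -0.0075 for G (8 of 15). Sites that shared bases with a polyadenylation hexamer had -0.17 (33 isoforms) and the others -0.13 (165). These medians differed by less than the quartile range within each class and were not tested.

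TE varied more with the position. Of 13 isoforms with the site in the part next to the stop codon, 1 was below its length-matched median, and the median log2 ratio was 0.26. In the middle part 30 of 38 were below with a median of -0.57, of which 18 isoforms were of Acta1 and Map7d1, and with 1 isoform per locus 12 of 18 were below with a median of -0.39. In the part next to the 3′ end 47 of 83 were below with a median of -0.11. By distance to the 3′ end the medians were -0.10 within 100 nt (82 isoforms), -0.56 at over 100 to 300 nt (40) and 0.40 beyond 300 nt, where 2 of 12 were below. With 1 isoform per locus, the value at over 100 to 300 nt was -0.16 (20 loci) and that beyond 300 nt was 0.33 (2 of 11 below). TE was thus highest relative to length in the few isoforms whose site was far from the 3′ end, as in Tagln2, and this was not tested.

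Pairs of isoforms with the same start, in which a longer 3′ UTR added a site, compared the same coding sequence with and without it. Such a pair was found at 3 loci with TE. Rpl37a, a ribosomal protein, had a TE of 0.000995 in the long isoform with the site and 0.00195 in the short one without, a log2 difference of -0.97. Fzr1, an activator of the anaphase-promoting complex, had 0.000587 with and 0.00102 without (-0.79), and Dnajb1, a co-chaperone of heat shock protein 70, had 0.00047 with and 0.000696 without (-0.56). All 3 were lower in the long form, but so were 87 of 98 pairs in which neither isoform had a site, with a median of -0.35, and -0.14 to -0.66 by added length. Each of these pairs had 1 isoform of low coverage, 38 in the long Rpl37a form, 31 in the short Fzr1 form and 31 in the long Dnajb1 form.

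With half-life, a pair that gained a site was found at 8 loci, with a median log2 half-life difference of -0.27 and 5 of 8 lower in the long form. Pairs in which neither isoform had a site had a median of -0.14, with 100 of 165 lower (60.6%). Rpl37a had a half-life of 10.3 with the site and 13.4 without. The locus of chr11:52122864-52137500 had 7.05 with and 12.1 without, whereas Mrps23, a mitochondrial ribosomal protein, had 13.96 with and 10.6 without. Rpl14, another ribosomal protein, had 24.3 with the site at a coverage of 74 and 12.6 without. Arpp19, an inhibitor of protein phosphatase 2A, had 12.6 with and 14.0 without, and Fzr1 had 7.56 with and 6.82 without. The other 2 loci have no gene name, and both were lower with the site. The long isoform chr17:25479485-25492347 on the minus strand had 9.60, against 17.97 in the short one without, and chr7:99488114-99508091 on the minus strand had 8.19, against 10.8. For scale, isoforms with 3′ ends under 50 nt apart, which are nearly the same molecule, differed with an SD of 0.891 in log2 half-life (69 loci) and 0.411 in log2 TE (33 loci). Of the 8 half-life differences, 6 were smaller than the SD for half-life. That SD was itself larger than the SD of 0.566 among the half-life pairs without a site, so it is a loose scale. All 3 TE differences were larger than the SD for TE, in the direction that most TE pairs without a site also took.

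Both values were available for 63 isoforms with a site, of 52 loci. In 21 of them (33.3%) both TE and half-life were below the length-matched medians, in 12 only TE, in 13 only half-life and in 17 neither. Among 1469 isoforms without a site, both were below in 22.7%, only TE in 24.7%, only half-life in 18.1% and neither in 34.5%. Spearman's correlation of the 2 log2 ratios across isoforms was 0.118 with a site and 0.132 without, as a description, since isoforms of a locus share sequence. Isoforms below in both included Bap1, Gsk3a and Map7d1, and those above in both included Tagln2, Ypel3, Slc39a13, Fis1 and Trir.

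**Figure D5:**
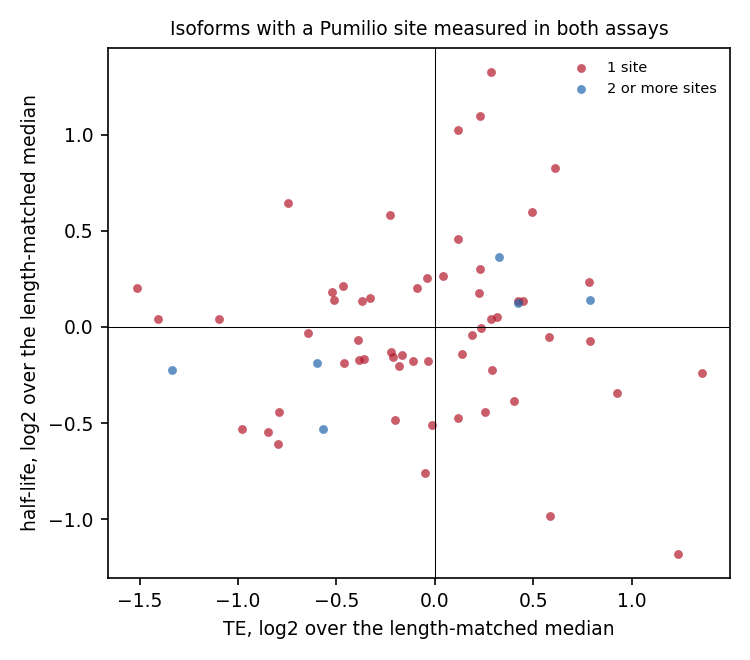
TE (x axis) and half-life (y axis) of each of the 63 isoforms with a Pumilio site measured in both assays, as log2 over the median of isoforms without a site of like 3′ UTR length, with 1 site in red and 2 or more in blue; black lines mark 0. Points fill all 4 quadrants, with 21 below 0 on both axes.

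At the limits of the rule, the longest 3′ UTR inside it in the polysome table was that of Slc39a13 among isoforms used (1112 nt, TE 0.000628), and the next one outside had 1220 nt and a TE of 0.000344. In the decay table the isoform just inside had 1183 nt and a half-life of 8.67, and the one just outside was Mavs, an adaptor of antiviral signalling, with 1233 nt and 7.06. Isoforms with a site and 1 pentamer had a median TE of 0.000639 (39 isoforms) and a median half-life of 9.82 (62 isoforms). Those with 2 pentamers, just outside, had 0.000568 (28 isoforms) and 9.77 (32 isoforms). These medians are not matched for length. The median 3′ UTR length with 2 pentamers was 722 nt for TE and 758 nt for half-life, against 369 and 389.5 nt with 1 pentamer.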

How the data were processed

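TIF-seq2 isoform tables of mouse myotubes were used, 1 for the polysome assay and 1 for the decay assay. Reads had been processed with STAR 2.5.3a, UMI-tools 0.5.4, cutadapt 1.16 and bcl2fastq 2.20.0 on the build GRCm39, per the submitters' processing notes. The authors deposited for each isoform a coverage count summed over libraries (1601919 in the polysome table, 3121491 in the decay table), the UTR sequences and 1 value treated here as a score, TE or half-life; formulas and units of both are not stated there. The number of columns for single libraries was 0, so depth per library is unknown.

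The members and gene lists were chosen with earlier results of these data known. Values above 0 at a coverage of at least 30 were used. Isoforms were joined into loci by a shared end, or by overlap and the same 20 nt before the start or after the stop codon. Names came from an exact match of the first 20 nt to RefSeq promoter windows (GRCm38.p6 table, 250 before to 50 after the start) of the isoform itself or of another isoform of its locus, and cover 54.9% of polysome and 53.3% of decay isoforms. The linear model was fitted over all isoforms within the length and pentamer limits with statsmodels 0.14.6 (Python 3.11.15), and p-values were adjusted over 2 tests. It was tested on simulated data. p-values describe spread across loci, not mice. Named isoforms were the 12 best covered in both tables, up to 10 loci with several sites, all pairs that gain a site, and the 5 lowest and highest ratios at a coverage of at least 100. Map7d1, Polr2f and Mavs fall outside that rule and were named after their values were seen. Alternatives covered the coverage limit, covariates, 1 isoform per locus, annotation class, motif and outer values.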

Additional observations from a re-analysis of the deposited data

How the results depend on the processing

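No paired analysis was possible because the tables hold no values of single mice, and for the same reason no replicate could be left out. The half-life difference of the Pumilio site (-0.12, SE 0.0415) lost its call among annotated isoforms, for a reason not tested (-0.086, SE 0.0466, adjusted p = 0.128 in the linear model, n = 117). With the 7 bases TGTANAT it was -0.088 (adjusted p = 0.143, n = 508) and with TGTANAT not followed by A -0.061. Control motifs gave -0.12 (ACAANATA) and -0.018 (ATANATGT), and 0.027 for ATANATGT with 3′ GC content. Under the other 14 settings the half-life difference was between -0.080 and -0.20 and passed. The lower end is ACAANATA without the Eef2 locus, and the Pumilio site itself stayed between -0.080 (all covariates) and -0.16 (no coverage limit). A coverage minimum of 15 and no minimum are counted separately but gave the same half-life fit, since no decay isoform had a coverage below 21. TE did not pass with the Pumilio site under any setting run. It turned to 0.0093 with 7 bases and 0.091 with TGTANAT not followed by A, and control motifs gave -1.20 (ACAANATA), 0.30 (ATANATGT) and 0.29 (ATANATGT with 3′ GC content). The cause was not tested. Under the other 15 settings it was between -0.049 and -0.26; the lower end is ACAANATA without the Eef2 locus, and the Pumilio site itself stayed between -0.049 (without Acta1) and -0.16 (3′ UTR up to 600 nt). Medians by number and position of sites have no test. With 1 isoform per locus the TE median was -0.16 in place of -0.56 at over 100 to 300 nt and -0.39 in place of -0.57 in the middle part, and the half-life median was -0.36 in place of -0.14 in the middle part. The half-life median at over 100 to 300 nt turned to 0.053 at a coverage of at least 60. Pairs were recomputed under coverage limits alone, with medians of -0.88 for TE at a minimum of 15 and -0.39 for half-life at 60, and no TE pair was left at 60. The settings without the Acta1 or Eef2 locus, ATANATGT with GC content, TGTANAT not followed by A, and 1 isoform per locus for number and position were chosen after seeing the data. Of the 262 polysome isoforms, 126 had a coverage under 30.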

Other observations

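The bases around the 219 sites were not even. C preceded 31.1%, T 30.6%, G 19.6% and A 18.7% of sites. Over all 3′ UTRs within the length and pentamer limits the shares were 26.1% C, 26.2% T, 24.5% G and 23.2% A. The sites of Ccdc12 and Traf7 follow a C, and 48 sites (21.9%) were followed by AA, for which no share over all 3′ UTRs was computed. Among the polysome isoforms, 2 of Map7d1 started inside the 3′ UTR assigned to them, so those isoforms hold the site but not the coding sequence. Neither had a TE.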
